A study of Mus musculus with 12 samples.

Results

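Polycomb repressive complex 2 (PRC2) was followed through 10 genes in mouse embryonic stem (ES) cells with and without the telomerase RNA gene Terc. Every probe set annotated to Ezh1, Ezh2, Eed, Suz12, Rbbp4, Rbbp7, Jarid2, Aebp2, Mtf2 or Phf19 and to no other gene was taken, which gave 35 of the 45037 probe sets that are not controls. Suz12 and Mtf2 had 6 probe sets each, Aebp2 had 5, Ezh1 and Rbbp4 had 4 each, Jarid2 had 3, Eed, Rbbp7 and Phf19 had 2 each, and Ezh2 had 1. Probe sets of one gene share its transcripts and are not replicates of each other.

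PRC2 places methyl groups on lysine 27 of histone H3, a mark of silenced genes. Ezh2 and its relative Ezh1 are the alternative catalytic subunits, Suz12 and Eed are needed for a working enzyme, Eed also reads the mark that the complex makes, and Rbbp4 and Rbbp7 bind histones in PRC2 and in several other complexes. Jarid2 and Aebp2 accompany the core in one form of the complex, and the Polycomb-like proteins Mtf2 and Phf19 accompany it in another. In ES cells the complex holds developmental regulators silent, and ES cells without Eed or Suz12 can renew themselves but differentiate poorly.

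The cells were C57BL/6 ES cells that carried Terc-/- (KO) or were wild type (WT), each at day 0 and after 8 and 15 days of differentiation, with 2 arrays in each of 6 groups. At day 0 the KO arrays came from lines F35 and A49 at passage 11, and the WT arrays from lines N12 and N33 at passage 12. F35 and A49 were made from Terc-deficient mice of the late generations G3 and G4, in that order. ES cells were kept with LIF on growth-arrested mouse fibroblasts, and differentiation began with hanging-drop embryoid bodies for 4 days without LIF. The labels do not name the lines behind the arrays of days 8 and 15. The study describes its arrays as G4 KO and WT cells in duplicate, whereas the KO arrays of day 0 include F35, a G3 line. Each sample is a mixture of cells. Genotype rests on the labels. The study tied PRC2 to silencing of the follistatin gene Fst, and the question here was how the transcripts of the complex differed between KO and WT cells on each day.

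Values are linear intensities, a scanner brightness after the authors' scaling. Medians lay between 113.6 and 117.0 on the 4 arrays of day 0 and between 50.6 and 53.1 on the other 8, so no intensity of day 0 was set against a later one. Replicates correlated at r = 0.987 to 0.996 over all probe sets (log2), lowest for the 2 WT arrays of day 8. Those WT arrays differed in differentiation markers, with summed intensities of 6764 and 26400 over 10 fibroblast genes. The ES cell genes Pou5f1, Nanog, Sox2 and Zfp42 stood at or above the 91.5th percentile of all 4 arrays at day 0. Of the 35 PRC2 probe sets, 25 lay above the median of every array, 4 above that of none, and 6 between.

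The promoters of Ezh2, Eed, Suz12 and Jarid2 are shown because their probe sets carried the differences described below. Each run is the 250 bases before the annotated start (RefSeq, GRCm38.p6), read 5′ to 3′ on the gene's strand. Capitals mark an E2F motif (TTTCCCGC, TTTGGCGC, TTTCGCGC or TTTGCCGC) or a CCAAT box (CCAAT) on either strand, with no overlaps among the matches. Ezh2 lies at chr6:47595031-47595280 (minus strand), Eed at chr7:89980977-89981226 (minus strand), Suz12 at chr11:79992856-79993105 (plus strand) and Jarid2, at the first of its 2 listed starts, at chr13:44730524-44730773 (plus strand).
Ezh2: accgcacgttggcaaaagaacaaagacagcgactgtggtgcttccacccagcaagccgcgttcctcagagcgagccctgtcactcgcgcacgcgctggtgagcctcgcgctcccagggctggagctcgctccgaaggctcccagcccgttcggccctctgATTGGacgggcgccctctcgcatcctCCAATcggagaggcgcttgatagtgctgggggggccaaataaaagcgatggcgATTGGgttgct
Eed: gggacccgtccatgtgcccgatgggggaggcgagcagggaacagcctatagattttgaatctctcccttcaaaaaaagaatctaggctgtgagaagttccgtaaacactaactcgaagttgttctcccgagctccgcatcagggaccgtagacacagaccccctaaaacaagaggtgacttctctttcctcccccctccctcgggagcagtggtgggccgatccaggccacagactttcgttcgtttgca
Suz12: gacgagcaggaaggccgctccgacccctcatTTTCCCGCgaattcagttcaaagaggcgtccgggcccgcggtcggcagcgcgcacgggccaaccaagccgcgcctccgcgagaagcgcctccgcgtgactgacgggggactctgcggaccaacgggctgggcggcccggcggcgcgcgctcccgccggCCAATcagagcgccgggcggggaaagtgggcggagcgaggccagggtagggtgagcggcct
Jarid2: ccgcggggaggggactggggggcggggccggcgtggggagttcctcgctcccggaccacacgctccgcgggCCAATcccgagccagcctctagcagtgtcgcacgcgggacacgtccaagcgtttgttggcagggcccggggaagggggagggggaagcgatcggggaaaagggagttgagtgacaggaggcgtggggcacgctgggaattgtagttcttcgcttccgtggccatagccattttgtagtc

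The Ezh2 run held 3 CCAAT boxes, those of Suz12 and Jarid2 1 each, and the Eed run none. A CCAAT box was found in 33.8% of the 32851 mouse promoters of the same length. An E2F motif was found in the Suz12 run, and in 1.86% of all promoters. Over the 14 listed starts of the 10 genes, 7 runs held a CCAAT box and 2 an E2F motif, the other in Phf19. CG pairs numbered 23 for Ezh2, 12 for Eed, 37 for Suz12 and 23 for Jarid2, against a median of 6 over all promoters. A match describes letters only and says nothing of binding.

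Averaged over the 3 days, Ezh2 was lower in KO cells, and Eed and Jarid2 were higher on some of their probe sets. On single days only Eed and Jarid2 passed the test, both at day 15. A probe set was called where its adjusted p was under 0.05 in a limma fit to all 12 arrays, with Benjamini-Hochberg adjustment over 45037 probe sets. At day 0 none of the 35 was called, where 0.0488% of all probe sets were called either way. At day 8 none was called, where 1.13% were. At day 15 Eed and 2 of 3 Jarid2 probe sets were called higher and none lower, where 6.45% of all probe sets were called higher and 6.45% lower. At an unadjusted p under 0.05 there were 11 at day 0, 7 at day 8 and 10 at day 15. The 3 calls of day 15 are 3 of 35 probe sets, close to the share over all probe sets. The count at day 15 rose without F35, A49 or any array of day 8, and fell most without KO replicate 2 of day 15. The count over all probe sets moved in each of these fits. The count at day 0 rose without F35 or either WT array of day 8, as did that over all probe sets. Without F35 the day 0 log2 differences were -0.81 for Ezh2, -1.21 for 1420022_s_at of Suz12 and 0.88 for 1455616_at of Aebp2.

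**Figure D1:**
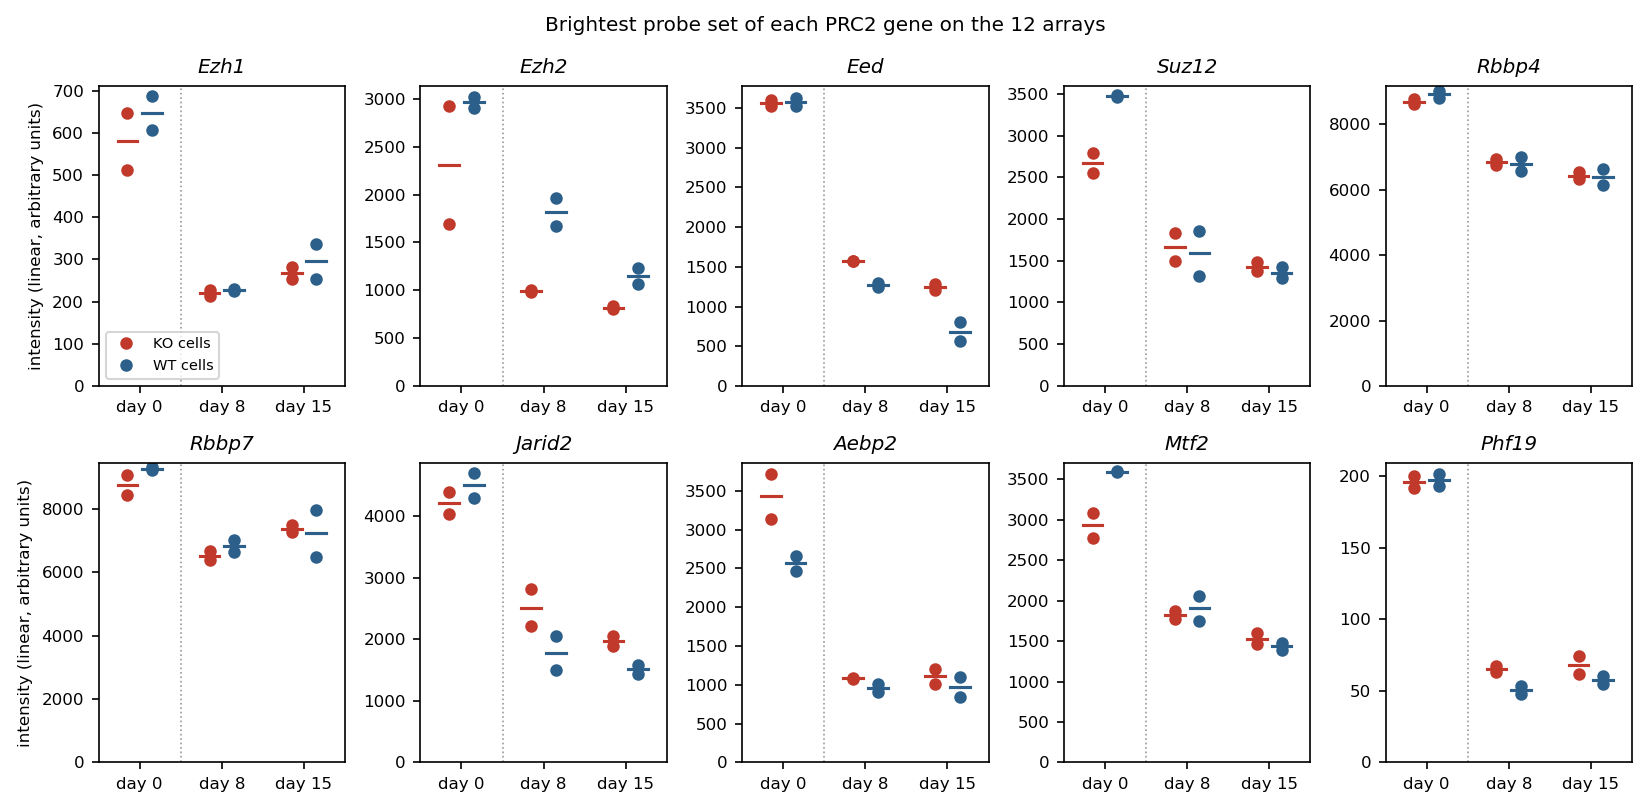
Intensity (linear, arbitrary units) of the brightest probe set of each PRC2 gene, KO arrays left of WT arrays on each day; points are arrays and lines the mean of 2. The dotted line separates day 0, whose array medians were about double the later ones. The 2 KO arrays of Ezh2 lie below both WT arrays at days 8 and 15, and those of Eed above them.

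Ezh2, the main methyltransferase of dividing cells, had 2927 (F35) and 1689 (A49) in KO cells at day 0, against 2905 and 3025 in WT cells. Only A49 stood apart there. At day 8 it had 1008 and 979 in KO cells, against 1961 and 1675 in WT cells. At day 15 it had 805 and 834 in KO cells, against 1066 and 1235 in WT cells. Both KO arrays lay below both WT arrays on the later days. The log2 differences (KO minus WT) were -0.42 ± 0.20 at day 0, -0.87 ± 0.20 at day 8 and -0.49 ± 0.20 at day 15 (± SE), with adjusted p of 0.618, 0.0735 and 0.152 by limma. Averaged over the 3 days the difference was -0.59 ± 0.12 (adjusted p = 0.0111), and it was called under every one of 18 alternatives. That average uses the arrays of the single days and is not a separate measurement.

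The day 8 difference in Ezh2 stood near the threshold. Fitted to the 8 arrays of days 8 and 15 alone, limma gave an adjusted p of 0.0250. Without F35 or without A49 the fit gave 0.00724 and 0.00717, although neither array belongs to day 8, since either step takes the KO spread of day 0 out of the shared error. Without F35 the day 0 difference itself was -0.81, which rests on A49 alone in the KO group. F35 (2927) lay between the WT arrays (2905 and 3025). Of 16 measured proliferation genes, none was called between KO and WT cells at day 8, where 1.13% of all probe sets were called. At that share, no call among 16 genes says little. Their median log2 difference was -0.07, and the part of proliferation in the Ezh2 difference was not tested.

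In order of level, Ezh2 was lowest in KO cells at day 15, then KO cells at day 8, WT cells at day 15 and WT cells at day 8, with no overlap of arrays between neighbours. From day 8 to day 15 it changed by -0.28 in KO cells (adjusted p = 0.676) and by -0.66 in WT cells (adjusted p = 0.0480, limma). The WT call was lost in 16 of 22 alternatives. The genes whose brightest probe set followed Ezh2 most closely over the 8 later arrays were Med9, Ptcd3 and Mad2l1 (Pearson r = 0.99 each, of 9661 genes above the array medians). These 8 arrays fall into 4 groups, so the likeness describes group levels as much as single arrays.

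Ezh1, the catalytic subunit of slowly dividing tissues, was not called between the genotypes on any day. Its brightest probe set (1449023_a_at) had 647 and 512 in KO cells and 607 and 687 in WT cells at day 0, 214 and 228 in KO cells and 229 and 225 in WT cells at day 8, and 281 and 253 in KO cells and 254 and 337 in WT cells at day 15. The arrays of both genotypes overlapped on all 3 days. Its log2 differences were -0.17, -0.04 and -0.13, and the 95% interval at day 15 ran from -0.48 to 0.22. The other 3 Ezh1 probe sets were dim and ran different ways, with log2 differences between -0.34 and 0.43 and none called. Both KO arrays lay above both WT arrays on all 3 days for 1429630_at (14.7 and 12.9 in KO cells, 10.0 and 12.4 in WT cells at day 15), and below them at days 0 and 15 for 1418290_a_at and 1429629_at. Over the 8 later arrays Ezh1 was most like Dvl1, Hsdl1 and Mettl26 (r = 0.96 each). By qPCR the study reported lower Ezh1 and Ezh2 in G4 KO than in WT ES cells, partly restored after Terc repair. The KO arrays of day 0 here were of F35 (G3) and A49 (G4), and neither gene was called on them.

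Eed, the subunit that binds methylated histone H3, was higher in KO cells at day 15. Its brighter probe set (1448653_at) had 3607 and 3524 in KO cells and 3624 and 3530 in WT cells at day 0, which overlap. At day 8 it had 1569 and 1575 in KO cells, against 1297 and 1243 in WT cells. At day 15 it had 1213 and 1285 in KO cells, against 563 and 801 in WT cells. Both KO arrays stood above both WT arrays on the later days. The log2 difference was -0.0048 ± 0.14 at day 0, 0.31 ± 0.14 at day 8 (adjusted p = 0.345) and 0.89 ± 0.14 at day 15 (adjusted p = 0.00203), a 1.86-fold difference. The day 15 call held without any single array of the 12.

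The second Eed probe set (1453830_at) was dim. It had 17.6 and 20.9 in KO cells and 17.2 and 18.0 in WT cells at day 15, with a log2 difference of 0.12 (adjusted p = 0.652). The 2 probe sets of Eed therefore differ in size, and the mean of both gave 0.51 at day 15 (adjusted p = 0.0154). KO cells at day 15 and WT cells at day 8 overlapped in Eed level on the brighter probe set.

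Suz12, which holds the core together, read lower in KO cells at day 0 on every one of its 6 probe sets. The brightest (1420021_s_at) had 2790 and 2549 in KO cells and 3467 and 3484 in WT cells at day 0. A dimmer one (1420022_s_at) had 167 and 134 in KO cells and 289 and 331 in WT cells. On all 6 both KO arrays lay below both WT arrays, as they did on 18.4% of all probe sets. The 6 log2 differences ran from -1.05 to -0.23. None was called, and the smallest adjusted p was 0.0792, that of 1420022_s_at. It passed the threshold with an offset of 32 before log2 (-0.91, adjusted p = 0.0339) and with quantile normalization (-1.25, adjusted p = 0.0324). At day 8 the 6 log2 differences lay between -0.26 and 0.17, with none called. Both KO arrays still lay below both WT arrays on 1452364_at (243 and 183 in KO cells, 255 and 250 in WT cells), and above them on 1420020_at. At day 15 all 6 were positive, between 0.05 and 0.52, with none called. The brightest had 1382 and 1479 in KO cells and 1287 and 1427 in WT cells, which overlap.

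Rbbp4 and Rbbp7, the histone-binding partners, differed little between the genotypes, and none of their probe sets was called on any day. The brightest Rbbp4 probe set (1434892_x_at) had 6544 and 6324 in KO cells and 6632 and 6153 in WT cells at day 15, with a log2 difference of 0.01 (95% interval -0.14 to 0.16). The brightest Rbbp7 probe set (1456227_x_at) had 7475 and 7252 in KO cells and 6492 and 7948 in WT cells, with a log2 difference of 0.04 (-0.16 to 0.23). Names that end in _x_at mark probes that can bind transcripts of other genes, which applies to both. Over the 6 probe sets and 3 days, log2 differences lay between -0.33 and 0.07. Both KO arrays lay below both WT arrays on 4 of the 6 at day 0, 3 at day 8 and 1 at day 15. Over all probe sets 18.4%, 17.8% and 23.4% did so on those days. The farthest from 0 was 1454791_a_at of Rbbp4 at day 0, with 1148 and 1091 in KO cells and 1322 and 1507 in WT cells (-0.33).

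**Figure D2:**
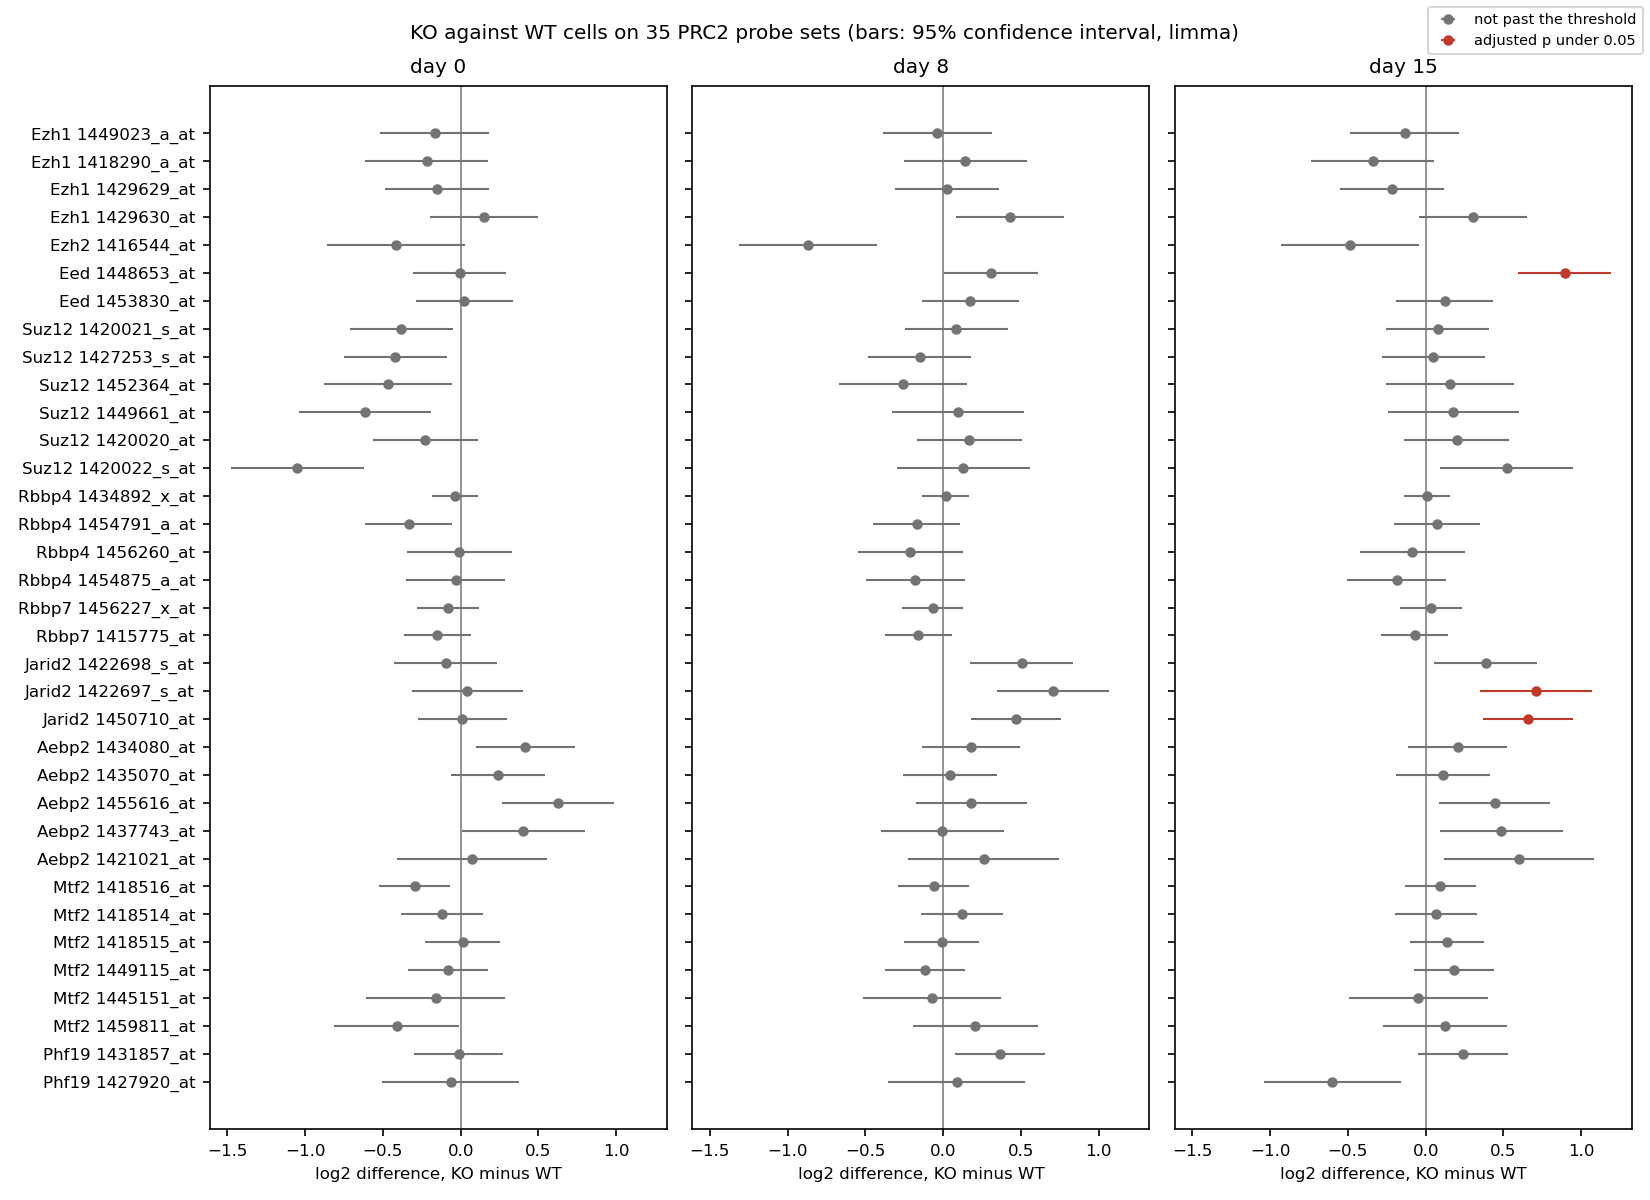
Log2 difference in intensity, KO minus WT, for all 35 PRC2 probe sets at days 0, 8 and 15; points are limma estimates from 2 arrays per group and bars their 95% confidence intervals. The 3 called probe sets (1 of Eed, 2 of Jarid2) lie right of 0 at day 15, and the 6 of Suz12 lie left of 0 at day 0.

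Jarid2, an accessory subunit that helps to recruit PRC2 in ES cells, read higher in KO cells on both later days, and 2 of its 3 probe sets passed the test at day 15. The brightest probe set (1422698_s_at) had 4392 and 4042 in KO cells and 4712 and 4303 in WT cells at day 0. It had 2817 and 2212 in KO cells, against 2061 and 1503 in WT cells, at day 8. It had 1900 and 2048 in KO cells, against 1580 and 1443 in WT cells, at day 15. All 3 probe sets had both KO arrays above both WT arrays at days 8 and 15, and 1 of them did at day 0 (1422697_s_at, 3894 and 3781 in KO cells against 3732 and 3716 in WT cells). Over all probe sets 29.5% did so at day 0, 25.7% at day 8 and 30.8% at day 15.

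At day 8 the Jarid2 log2 differences were 0.50, 0.71 and 0.47, with adjusted p of 0.152, 0.0687 and 0.127. At day 15 they were 0.39 (adjusted p = 0.127), 0.71 (adjusted p = 0.0160, 1422697_s_at) and 0.66 (adjusted p = 0.00799, 1450710_at). For 1450710_at the day 15 arrays read 335 and 364 in KO cells and 229 and 214 in WT cells. For 1422697_s_at they read 1195 and 1220 in KO cells and 817 and 668 in WT cells. The call of 1422697_s_at was lost without either KO array of day 15 or without WT replicate 2 of day 15, and that of 1450710_at without KO replicate 2 of day 15. Without WT replicate 1 of day 8, all 3 Jarid2 probe sets were called higher at day 8, with log2 differences of 0.73, 1.01 and 0.66.

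Aebp2, a zinc finger subunit of the same form, read higher in KO cells at day 0 on 4 of 5 probe sets without overlap of the arrays. The brightest (1434080_at) had 3142 and 3720 in KO cells and 2664 and 2468 in WT cells. Its log2 difference was 0.41 (adjusted p = 0.401), and the 5 lay between 0.07 and 0.63. At day 15 all 5 were positive, between 0.11 and 0.60, with 3 free of overlap. Over all probe sets 29.5% had both KO arrays above both WT arrays at day 0, and 30.8% at day 15. None of the 5 was called on a single day. Over the 3 days 1455616_at averaged 0.42 higher in KO cells (adjusted p = 0.0189), a call lost without KO replicate 2 of day 8, KO replicate 1 of day 15 or WT replicate 2 of day 0.

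Mtf2 and Phf19, the Polycomb-like subunits that guide the complex to CG-rich DNA, were not called between the genotypes. The brightest Mtf2 probe set (1418516_at) had 3087 and 2780 in KO cells and 3596 and 3599 in WT cells at day 0, then 1771 and 1875 in KO cells and 2062 and 1755 in WT cells at day 8, and 1466 and 1596 in KO cells and 1479 and 1390 in WT cells at day 15. On this probe set only at day 0 were the arrays apart. The log2 differences of the 6 Mtf2 probe sets lay between -0.41 and 0.01 at day 0. They lay between -0.12 and 0.21 at day 8, and -0.05 and 0.18 at day 15. Both KO arrays lay below both WT arrays on 3 of them at day 0 and 1 at day 8, and above on 3 at day 15. Over all probe sets these shares were 18.4%, 17.8% and 30.8%. The brighter Phf19 probe set (1431857_at) had 67.2 and 63.0 in KO cells and 48.0 and 53.1 in WT cells at day 8, and 74.6 and 62.0 in KO cells and 60.5 and 54.9 in WT cells at day 15. The other (1427920_at) had 34.6 and 31.7 in KO cells and 53.5 and 47.1 in WT cells at day 15, so the 2 probe sets of Phf19 ran opposite ways there, with log2 differences of 0.24 and -0.60 and neither called.

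Averaged over the 3 days, 4 probe sets were called higher in KO cells (1448653_at of Eed, 2 of Jarid2 and 1 of Aebp2) and 1 lower (Ezh2). Over all probe sets 4.67% were called higher and 5.01% lower. Both KO arrays lay above both WT arrays for 6 of the 35 at day 0, 9 at day 8 and 13 at day 15, where 29.5%, 25.7% and 30.8% of all probe sets did so. They lay below for 15, 6 and 5, where 18.4%, 17.8% and 23.4% did so. At day 0, 15 of 35 below is more than the share over all probe sets, and 6 of the 15 belong to Suz12. The 1.8-fold rule of the study's methods, applied to group means, picked 1 probe set each day: 1420022_s_at of Suz12 at day 0 (KO over WT 0.484), Ezh2 at day 8 (0.546) and Eed at day 15 (1.83). It picked 1.13%, 2.28% and 6.28% of all probe sets on those days.

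From day 8 to day 15, 10 of the 35 PRC2 probe sets fell in WT cells. In KO cells none of the 35 was called, where 0.0200% of all probe sets were called either way, and 7 had an unadjusted p under 0.05. In WT cells 10 were called lower and none higher, where 9.16% were called lower and 6.89% higher. The 10 were 3 of Suz12, 2 of Mtf2 and 1 each of Ezh2, Eed, Rbbp4, Jarid2 and Aebp2. Eed had 563 and 801 at day 15 and 1297 and 1243 at day 8 in WT cells, a log2 change of -0.92 (adjusted p = 0.00143). In KO cells it changed by -0.33 (adjusted p = 0.409). The Mtf2 probe set 1449115_at had 168 and 192 at day 15 and 325 and 300 at day 8 in WT cells, a log2 change of -0.80 (adjusted p = 0.00132), and -0.50 in KO cells (adjusted p = 0.207). The Suz12 probe set 1452364_at changed by -0.81 in WT cells (adjusted p = 0.0132) and by -0.40 in KO cells (adjusted p = 0.483).

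The median log2 change of the 35 was -0.16 in KO cells and -0.15 in WT cells, against -0.01 and 0.00 over all probe sets. A call in WT cells and none in KO cells is not a difference between them. That difference, tested as an interaction, was called for none of the 35 (2 with an unadjusted p under 0.05), where 0.422% of all probe sets were called. The 2 were 1448653_at of Eed, 0.59 ± 0.19 (adjusted p = 0.243), and 1427920_at of Phf19, -0.69 ± 0.28 (adjusted p = 0.361). Leaving out 1 array, the count of 10 fell in every fit except that without WT replicate 2 of day 8, where it rose. It fell most without WT replicate 1 of day 15. The count over all probe sets moved the same way each time, though it hardly changed without WT replicate 2 of day 15. The largest rise in WT cells, not called, was that of 1427920_at of Phf19 (0.53, adjusted p = 0.102 by limma). The PRC2 count became 0 in a fit to the 4 WT arrays alone, where 367 of all 45037 probe sets were called.

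**Figure D3:**
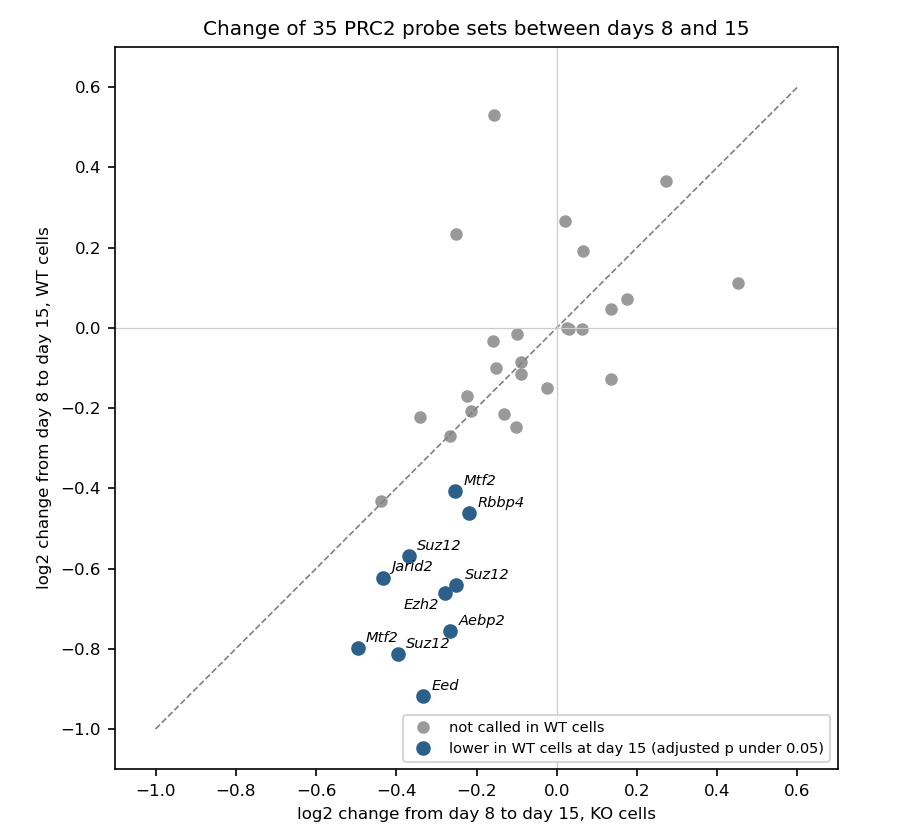
Log2 change from day 8 to day 15 of 35 PRC2 probe sets in KO cells (x axis) and WT cells (y axis); each point is a probe set, the dashed line marks equal change, and labels name the 10 probe sets called lower in WT cells. All 10 lie left of 0 and below the line; the labelled ones were picked by their WT change, so their place below the line is no comparison of the genotypes, and the medians of all 35 are -0.16 in KO cells and -0.15 in WT cells.

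Between day 0 and day 15 the change differed between KO and WT cells for Eed and for 1 Suz12 probe set. The interaction cancels a single scaling factor of day 0 that both genotypes share. The day 0 arrays differed by more than 1 factor. Lower quartiles were 54.4 to 56.3 at day 0 and 19.1 to 20.7 later, and upper quartiles 338.1 to 342.5 and 190.2 to 206.8. The part of this in the interaction was not tested. It was called higher in KO cells for 1448653_at of Eed (0.90 ± 0.19, adjusted p = 0.0272) and 1420022_s_at of Suz12 (1.57 ± 0.28, adjusted p = 0.0125), where 1.89% of all probe sets were called higher and 2.49% lower. For Eed the difference opened between those days, while for this Suz12 probe set it turned, with KO minus WT at -1.05 at day 0 and 0.52 at day 15. The Suz12 call was lost without KO replicate 2 of day 0, KO replicate 1 of day 15 or WT replicate 2 of day 0. The Eed call held without 4 of the 12 arrays, left out in turn, and was lost without the other 8. This interaction shares its arrays with the comparisons of days 0 and 15.

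Ranks within an array allow day 0 to be set beside the later days. The brightest probe set of Ezh2 stayed between percentiles 92.3 and 96.6 on the 12 arrays. Eed ranked at a mean percentile of 97.1, 95.9 and 94.96 in KO cells at days 0, 8 and 15, and of 97.1, 94.7 and 90.4 in WT cells. Phf19 ranked at 64.2, 55.2 and 55.9 in KO cells and at 65.0, 49.8 and 52.3 in WT cells. Counting shifts of at least 10 points with no overlap of arrays, 3 of the 35 moved up and 4 down in KO cells at day 8, where 19.6% and 19.1% of all probe sets did. At day 15 in KO cells 3 moved up and 9 down, where 20.4% and 20.03% did. In WT cells 2 moved up and 9 down at day 8, where 19.3% and 19.4% did, and 2 up and 11 down at day 15, where 21.1% and 21.6% did. Shifts up were rarer than over all probe sets throughout, and a probe set near the top of its array cannot move up by 10 points.

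**Figure D4:**
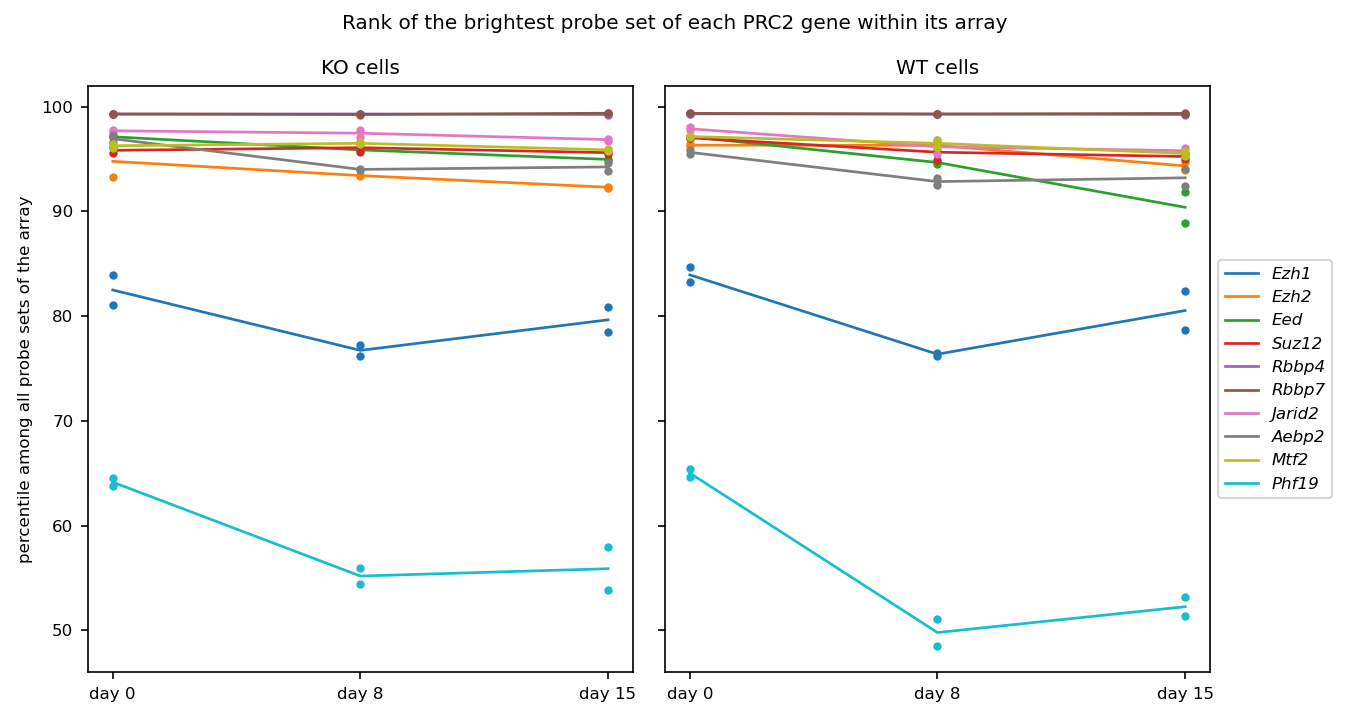
Percentile of the brightest probe set of each PRC2 gene among all probe sets of its array at days 0, 8 and 15, KO cells in the left panel and WT cells in the right; points are arrays and lines join the mean of 2. Eed drops to a mean of 94.96 in KO cells at day 15, against 90.4 in WT cells, and Rbbp4 is covered by Rbbp7 near the top.

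Other markers moved with the same arrays. The 12 pluripotency genes summed to 23200 and 21550 in KO cells and 3422 and 9723 in WT cells at day 15, and 11 of 12 were called higher in KO cells, with a median log2 difference of 2.27 (0.04 over all genes). The 10 measured fibroblast genes summed to 10960 and 16000 in KO cells and 76900 and 58080 in WT cells, and 7 were called lower (median -2.27). Of 16 measured proliferation genes only the helicase subunit Mcm5 was called at day 15 (0.54 higher in KO cells), while 9 of 16 were called lower from day 8 to day 15 in WT cells. Over all probe sets 6.45% were called higher and 6.45% lower at day 15, and 9.16% fell in WT cells from day 8. In these mixtures, fewer cells of a type and less RNA per cell cannot be told apart. The part of cell makeup in the differences of Eed, Jarid2 and Ezh2 was not tested.

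At day 0 the fibroblast list summed to 5436 (F35) and 8274 (A49) in KO cells, against 2903 and 5019 in WT cells, with a median log2 difference of 0.93 and none of 10 called. The array with the highest fibroblast sum, A49, also had the lowest Ezh2. The part of feeder or other fibroblast RNA in the lower Ezh2 and Suz12 values of day 0 was not tested. Pluripotency genes summed to 73880 and 75600 in KO cells and 72350 and 71580 in WT cells at day 0, with none called.

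Among PRC1 genes, whose complex binds the PRC2 mark and ubiquitinates histone H2A, 4 of 18 measured were called higher and 4 lower in KO cells at day 15. Over all probe sets 6.45% were called higher and 6.45% lower on that day. Phc1, a polyhomeotic subunit, had 2544 and 2207 in KO cells and 684 and 675 in WT cells, a log2 difference of 1.801 (adjusted p = 0.000258). Phc3, its relative, had 305 and 368 in KO cells and 632 and 567 in WT cells, a log2 difference of -0.84 (adjusted p = 0.00314). Scmh1 was lower by -0.71 on the log2 scale, and Pcgf6, a ring finger partner of PRC1, higher by 0.62. Phc1 was also called higher at day 8 (0.88, adjusted p = 0.0466) and no PRC1 gene was called at day 0.

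Of 14 measured genes from other complexes that hold Rbbp4 and Rbbp7, the deacetylase Hdac1 (0.48) and the chromatin assembly subunit Chaf1b (0.57) were called higher in KO cells at day 15 and none lower. Of 6 further PRC2 partners and H3K27 demethylases, Lcorl was called lower (-0.63, adjusted p = 0.0380). In both lists none was called at days 0 and 8, where 0.0488% and 1.13% of all probe sets were. At day 15 the shares over all probe sets were 6.45% higher and 6.45% lower. Fst itself had log2 differences of 1.03, -0.81 and -0.16 (KO minus WT) at days 0, 8 and 15, with adjusted p of 0.335, 0.283 and 0.818 by limma. At day 0 it had 232 and 370 in KO cells, against 131 and 159 in WT cells. That difference was past 1.8-fold without overlap, though not called. At day 8 both KO arrays lay below both WT arrays, and at day 15 they overlapped. The study drew Fst from its day 0 arrays with a 1.8-fold cut-off. It also reported raised Fst in late-generation KO lines by qPCR and Western blot.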

How the data were processed

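Total RNA of 12 mouse ES cell samples was hybridised to Affymetrix 430 2.0 arrays. The deposited values are linear intensity values of probe sets, which the authors' provider scaled (MAS5, per the labels, version not given). The 4 arrays of day 0 had about double the later medians shown in the report. The scaling target of each set is not given in the sources used here. Detection calls were not used here. The table held 45101 probe sets, of which 64 controls were left out. By GEO's platform annotation, 34945 probe sets had 1 gene, 932 several and 9160 none.

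Values under 1 were set to 1 and log2 taken. limma 3.58.1 (R 4.3.3; lmFit, eBayes with trend and robust moderation) was fitted with 1 mean per group to all 12 arrays, two-sided, and p-values were adjusted by Benjamini-Hochberg over 45037 probe sets (threshold 0.05). The fit was tested on simulated data. The methods name a 1.8-fold rule and no test for the arrays. Replicate arrays are labelled biological, but the cultures behind days 8 and 15 are not described, so p-values measure the spread between these samples. With 2 arrays per group, a permutation of 1 comparison could not go below p = 0.333.

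All 35 PRC2 probe sets are reported, with the brightest (highest mean log2) as a gene's main one. Of the other lists, up to 4 called genes per comparison were named by size, Fst once, and for Ezh1 and Ezh2 the 3 genes of highest Pearson r over 8 arrays. The lists were PRC2, other PRC2 partners, PRC1, other Rbbp4 and Rbbp7 complexes, proliferation, pluripotency, fibroblast, erythroid, endoderm and yolk sac, neural and cardiac muscle genes. The members and lists were chosen with earlier results of these data known. Comparisons of KO and WT cells share arrays with the averages and interactions built from them.

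Promoter sequences are from RefSeq (GRCm38.p6), and all 10 genes matched. Python 3.11.15 with pandas 2.3.3 and matplotlib 3.10.9 was used for motifs and plots. Alternatives covered the offset, normalization, dim probe sets, moderation, arrays in the fit, the methods' 2-group test, the fold and rank thresholds, the replicate number as a block and each array left out in turn.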

Additional observations from a re-analysis of the deposited data

Results flagged for a closer look

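For 2 probe sets the KO and WT cells differed in their change from day 0 to day 15, tested as an interaction in limma. Eed (1448653_at) had 0.90 ± 0.19 (log2, KO minus WT, ± SE; adjusted p = 0.0272): the 2 KO arrays of day 15 stood above the 2 WT arrays, and the arrays of day 0 overlapped. Suz12 (1420022_s_at) had 1.57 ± 0.28 (adjusted p = 0.0125), with both KO arrays below both WT arrays at day 0 and above them at day 15. The other 5 Suz12 probe sets were not called in the same test. Pluripotency genes were also apart at day 15, with 6 of 12 called higher in this interaction, where 1.89% of all probe sets were. The part of pluripotency genes in both values was not tested.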

How the results depend on the processing

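No value of a PRC2 probe set called in limma changed its sign under any alternative. Among 5778 values tested under alternatives, called ones included, 200 that were not called changed sign. Each group held 2 arrays, which limits every count below; array signal, not depth, sets the precision of dim probe sets. Counts of called probe sets out of 35 were 0, 0, 3 and 5 for KO against WT cells at day 0, day 8, day 15 and over the 3 days, 0 and 10 for day 15 against day 8 in KO and WT cells, and 0 and 2 for the interactions from day 8 and from day 0 to day 15.

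With an offset of 32, or with quantile normalization, the day 0 count was 1, where 293 and 115 of all 45037 probe sets were called. Fitted to only the arrays compared, day 15 against day 8 gave 3 in KO cells and 0 in WT cells, and the interaction from day 0 gave 5. Over all probe sets these fits gave 1273, 367 and 3236. Fitted to days 8 and 15 only, KO against WT at day 8 gave 1, and day 15 against day 8 in WT cells gave 6. Over all probe sets these gave 294 and 4893. The methods' 2-group test, unadjusted, gave 3, 2 and 7 for KO against WT at days 0, 8 and 15, where 3769, 3864 and 6541 of all probe sets passed. For day 15 against day 8 it gave 7 and 5 in KO and WT cells, where 4697 and 4770 passed. After Benjamini-Hochberg it gave 0 in each. The causes were not tested.

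Leaving out each array in turn gave 0 to 3 at day 0, 0 to 3 at day 8, 1 to 5 at day 15, 4 to 7 over the 3 days, 0 to 0 and 4 to 11 for day 15 against day 8 in KO and WT cells, and 0 to 1 and 0 to 4 for the interactions from day 8 and from day 0. With 1 array left in a group, it is assumed to vary like the other groups. Counts over all probe sets moved in the same fits.

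By group means, 1.5-fold picked 3, 2 and 5 probe sets at days 0, 8 and 15, 2-fold picked 1, 0 and 0, and 1.8-fold after adding 32 picked 0 at day 15. Percentile shifts of 5 points numbered 15 in KO and 17 in WT cells at day 8, and of 20 points 1 and 1 at day 8 and 1 and 3 at day 15. No share over all probe sets was taken at these fold and rank settings, so these counts have no background beside them. With the mean over a gene's probe sets in place of the brightest, Eed, Jarid2 and Aebp2 were called higher in KO cells at day 15 (0.51, 0.58 and 0.37).

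Same-numbered arrays did not deviate together: over 15 pairs of groups the correlation of deviations ran from -0.0677 to 0.1312, with 2 over 0.1, so the numbers pair no samples. With the replicate block the counts, in the order above, were 0, 0, 3, 7, 0, 9, 0 and 2. Over all 45037 probe sets they were 3, 511, 5590, 4212, 12, 7033, 155 and 1877.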

Other observations

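Lists of other cell types gave these values at day 15, KO against WT cells, in limma. Over all probe sets 6.45% were called higher and 6.45% lower. Of 5 measured erythroid genes, 3 were called lower (Hbb-bh1, an embryonic globin, -5.10; Hbb-y -4.23; Hba-x -3.66). Of 6 endoderm and yolk sac genes, 4 were lower (Afp, the fetal serum protein, -2.99; Apoa1 -2.33; Ttr -1.53; Alb -1.32). Of 6 measured neural genes, 4 were higher (Olig1, an oligodendrocyte lineage factor, 3.93; Stmn2, a neuronal stathmin, 3.74; Tubb3 1.15; Sox1 0.39). The first pair were also bright in undifferentiated cells: at day 0 Stmn2 had 4935 and 5694 in KO cells and 5007 and 4736 in WT cells, and Olig1 had 1562 and 1366 in KO cells and 1586 and 1644 in WT cells, while at day 15 Stmn2 had 2469 and 1950 in KO cells and 115 and 235 in WT cells. The array medians of day 0 were about double the later ones, so its intensities are not set against those of later days. None of 4 cardiac muscle genes was called. At day 0 none of these lists held a call, where 0.0488% of all probe sets were called.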
